A study of Rattus norvegicus with 24 samples.

Results

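The mitochondrial genome of the rat is a small circular DNA that carries the genes described here, and its transcripts were selected as every gene placed on chromosome MT in the deposited table. The rule took 37 of 35032 genes, whatever their biotype. They were 13 protein-coding genes, 2 ribosomal RNA genes and 22 transfer RNA genes. RNA sequencing had been carried out on the paraventricular nucleus (PVN) of the hypothalamus and the central amygdala (CEA) of rats with surgical trauma, and 24 libraries were available, 3 for each of 4 treatments in each region. The rats were male Sprague-Dawley animals bought at 7 weeks of age and kept for a week before the experiment. The NC group was not operated, the HT group underwent partial hepatectomy, the EA group received hepatectomy and electroacupuncture at the points ST36 and SP6, and the SEA group received hepatectomy with needles at the same points but no current. All rats, NC included, were restrained in the same way, needling was given a day before and directly after the operation, and the brain was taken a day after the last treatment. The study named 12 rats, and its methods state that brain samples came from different animals of the same batch, collected together. The 2 nuclei were dissected as tissue, so that each library holds neurons, glia and vessels together. In such bulk tissue a lower value for a transcript can come from fewer cells of a type or from less RNA per cell, and these cannot be told apart.

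Mitochondrial DNA is transcribed from both strands into long RNAs that cover many genes, and these are cut into messenger, ribosomal and transfer RNAs. The messengers encode core subunits of complexes I, III and IV of the respiratory chain and of the ATP synthase, also called complex V, while all other subunits come from nuclear genes. Neurons depend on this system for most of their ATP, and mitochondrial transcripts are among the most abundant RNAs in brain tissue.

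The 37 genes lay next to each other on chromosome MT from position 1 to 15415 of the coordinates in the table. On the plus strand were 12 protein-coding genes, both ribosomal RNA genes and 14 transfer RNA genes. Mt-nd6, at positions 13543 to 14061, was the protein-coding gene of the minus strand, which also carried 8 transfer RNA genes. Neighbouring genes overlapped in 7 places, with 43 bases shared by Mt-atp8 (7758 to 7961) and Mt-atp6 (7919 to 8599) and 23 bases shared on opposite strands by Mt-nd5 (11736 to 13565) and Mt-nd6. Reads within these overlaps could have been assigned to either gene or to none, depending on counting settings that the sources used here do not give. The ribosomal RNA genes carry only clone names in the table and are called small and large here by their length: AY172581.9 (positions 68 to 1025, 958 bases) and AY172581.24 (positions 1094 to 2664, 1571 bases).

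Summed over the 24 libraries, the 37 genes received 37684585 counts. The 12 plus-strand messengers took 32982969 of them, both ribosomal RNAs 4283127, and Mt-nd6 370088. Transfer RNAs took 46389 counts on the minus strand and 2012 on the plus strand, and made up 0.109 to 0.157% of the mitochondrial counts of a library. AY172581.13, a transfer RNA at the start of the table's coordinates, had 0 counts in every library. In every library 19 genes had at least 10 counts, namely the 13 messengers, both ribosomal RNAs and 4 minus-strand transfer RNAs. The comparison of the regions over all treatments tested 24 of the 37 genes, and the 13 genes below the filter on low counts had 406 counts together, with 10 as the highest count in a library.

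Libraries held between 13152772 and 18607032 counts, of which 546989 to 2618522 were mitochondrial. The mitochondrial share of all counts was higher in the CEA than in the PVN. In unoperated rats the PVN had shares of 8.77, 7.58 and 8.62%, and the CEA had 12.76, 11.69 and 11.54%. The 3 CEA libraries lay above the 3 PVN libraries, with means of 8.32% ± 0.647 and 12% ± 0.665 (SD, n = 3) and a ratio of 1.44. Over the 12 libraries of a region, the PVN ran from 7.07 to 8.77% with a median of 7.67%, and the CEA from 3.80 to 14.39% with a median of 11.7%. The regional means were 7.82% ± 0.475 and 11.3% ± 2.70 (SD, n = 12). The ranges overlapped through the second EA library of the CEA, and without it the difference of 3.52 percentage points became 4.21. Counting error was small against these differences, since the widest 95% Wilson interval of a share was 0.017 percentage points to either side.

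**Figure D1:**
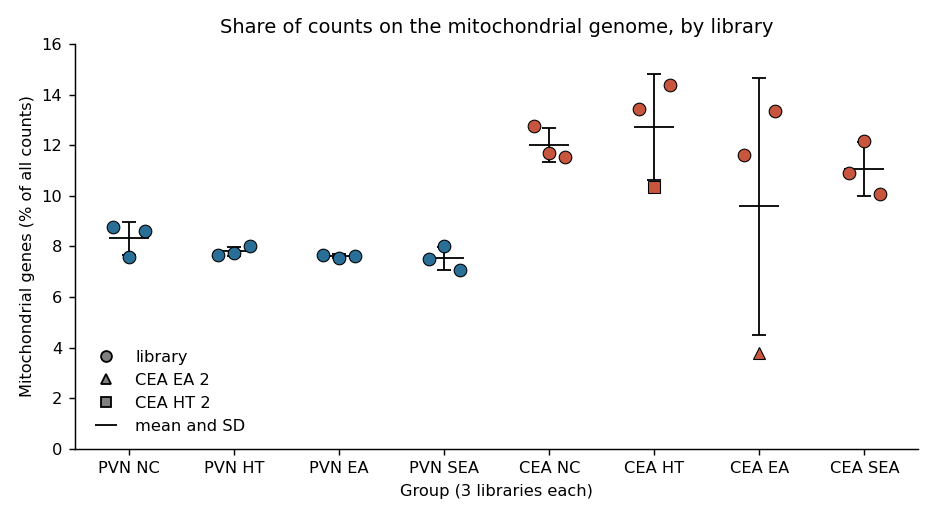
Mitochondrial share of all counts in each of the 24 libraries, in percent on the vertical axis, by treatment and region, with bars for the group mean and SD of 3 libraries. The PVN libraries lie between 7.07 and 8.77%, and the CEA libraries between 10.06 and 14.39% except CEA EA 2 at 3.80%.

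Within a region, the shares of the treatment groups overlapped in all 8 comparisons. In the PVN the HT libraries were at 7.67, 7.72 and 8.01%, the EA libraries at 7.68, 7.54 and 7.62% and the SEA libraries at 7.52, 8.0 and 7.07%. The difference between the means was -0.521 percentage points for HT against NC, -0.192 for EA against HT, -0.273 for SEA against HT and 0.0810 for EA against SEA. Leaving out single libraries gave -0.892 points (without PVN NC 2) to -0.298 (without PVN NC 1) for HT against NC, -0.257 (without PVN HT 1) to -0.0865 (without PVN HT 3) for EA against HT and -0.506 (without PVN SEA 2) to -0.0447 (without PVN SEA 3) for SEA against HT. EA against SEA changed sign, from 0.314 without PVN SEA 2 to -0.147 without PVN SEA 3. In the CEA the HT libraries were at 13.42, 10.36 and 14.39%, the EA libraries at 11.61, 3.80 and 13.35% and the SEA libraries at 10.91, 12.17 and 10.06%. The difference between the means was 0.723 percentage points for HT against NC, -3.13 for EA against HT, -1.68 for SEA against HT and -1.46 for EA against SEA. The difference of EA to HT was -0.239 points without CEA EA 2 and -5.02 without CEA EA 3, and that of HT to NC was 1.91 points without CEA HT 2 and -0.110 points without CEA HT 3. That of EA to SEA was 1.44 points without CEA EA 2 and -3.34 without CEA EA 3, and that of SEA to HT was -2.86 points without CEA HT 2 and -0.842 without CEA HT 3.

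A pair of CEA libraries stood apart in how their mitochondrial counts were divided among the 13 messengers and 2 ribosomal RNAs. For each library the root mean square log2 distance of these 15 parts from the median of its region was taken. It was 0.686 in CEA EA 2 and 0.576 in CEA HT 2, against 0.0697 to 0.193 in the other 22 libraries. They differed in which transcripts were low, and their values are given beside the results they touch. The study itself left a library of the CEA EA group out of its co-expression network because of large differences, without naming it in its text.

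CEA EA 2 had the lowest value of the CEA for 15 of the 15 transcripts in CPM, the counts per library set to a common total with scaling by the trimmed mean of M values (TMM). The transcripts were low to an unequal degree. Mt-nd4 of complex I was at 0.111 of the median of the 10 other CEA libraries (CEA HT 2 also left out), Mt-nd2 at 0.117 and Mt-cyb, the mitochondrial subunit of complex III, at 0.119. Mt-co1, the catalytic subunit of complex IV, was at 0.346, the small ribosomal RNA at 0.510 and the large ribosomal RNA at 0.592. The ribosomal RNAs therefore took 21.1% of the mitochondrial counts in this library, against 9.76 to 12.5% in those 10. Mt-co1 took 37.9% (29.6 to 32.5% in those 10), Mt-cyb 4.52% (9.91 to 10.9%) and Mt-nd2 2.96% (6.37 to 7.59%).

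CEA HT 2 had a mitochondrial share within the range of its region and a different division. Mt-nd4l and Mt-nd5 of complex I were low, at 0.463% of the mitochondrial counts (0.996 to 1.24% in the same 10 libraries) and 2.09% (3.77 to 4.45%). Mt-co2 of complex IV was high at 2.63% (1.11 to 1.60%), and Mt-nd3 at 1.88% (1.21 to 1.55%). In CPM these were 0.347 of the median for Mt-nd4l, 0.435 for Mt-nd5 and 1.78 for Mt-co2. The part of the mitochondrial counts lay below the range of the 10 libraries for 8 of 15 transcripts and above it for 6 in CEA HT 2, and below it for 6 and above it for 4 in CEA EA 2. Each of the 10 was also set against the rest of them. This gave from 0 below and 1 above (CEA NC 1) to 5 below and 2 above (CEA NC 2). The summed level of nuclear oxidative phosphorylation genes was 19840 CPM in CEA HT 2, above the 11670 to 15180 CPM of the other CEA libraries, and 12360 CPM in CEA EA 2. CEA HT 2 also had the fewest genes with a count, 20196 against 20557 to 21667 in the other 23 libraries. The part of RNA quality or dissection in these values was not tested.

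**Figure D2:**
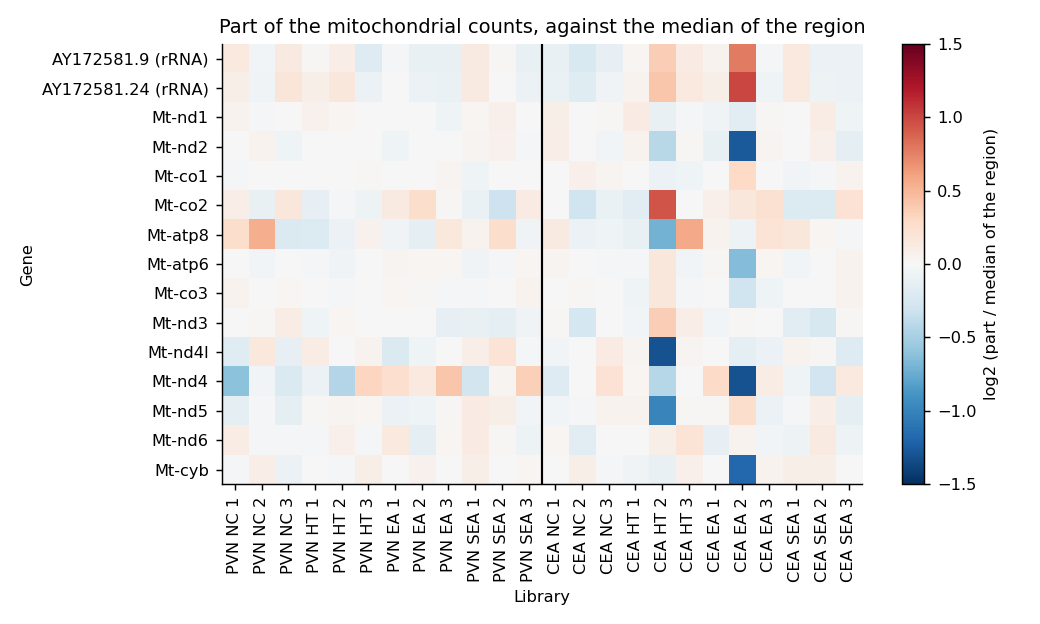
Each transcript's part of the mitochondrial counts of a library, as the log2 difference to the median of its region on the colour scale, for the 15 messengers and ribosomal RNAs and the 24 libraries. CEA EA 2 and CEA HT 2 depart from the other columns, with Mt-nd4, Mt-nd2 and Mt-cyb low in the former and Mt-nd4l and Mt-nd5 low in the latter.

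Although the messengers of the plus strand derive from shared long RNAs, their levels per kilobase differed widely. In the PVN, Mt-co1 had the highest mean level with 15900 CPM per kilobase, followed by Mt-atp6 of the ATP synthase with 12740, Mt-co3 of complex IV with 11670 and Mt-cyb with 7088. Mt-nd1 and Mt-nd2 of complex I had 4653 and 4392, the small ribosomal RNA 3782 and the large ribosomal RNA 2897. Mt-nd3 (2494), Mt-nd4l (2422), Mt-nd5 (1531), Mt-co2 (1457) and Mt-nd6 (1339) followed, and Mt-nd4 (467) and Mt-atp8 (292) were lowest. Each step of this order was seen in 12 of 12 libraries, except that Mt-nd3 lay above Mt-nd4l in 7, Mt-nd5 above Mt-co2 in 7, Mt-co2 above Mt-nd6 in 10 and Mt-nd4 above Mt-atp8 in 11.

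In the CEA the order was nearly the same. Mt-co1 had 24000 CPM per kilobase, Mt-atp6 20790, Mt-co3 17220 and Mt-cyb 10750. Mt-nd3 (4933) ranked above the large ribosomal RNA (4817) there, although this held in only 8 of 12 libraries. This ribosomal RNA lay above Mt-nd4l (4373) in 8 libraries, Mt-nd5 (2619) above Mt-co2 (2523) in 9 and Mt-co2 above Mt-nd6 (2340) in 6. These neighbours could not be ordered beyond their spread. Mt-nd4 (835) and Mt-atp8 (444) were again lowest. These levels are counts over gene length, and the part of overlapping genes and counting settings in them was not tested.

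**Figure D3:**
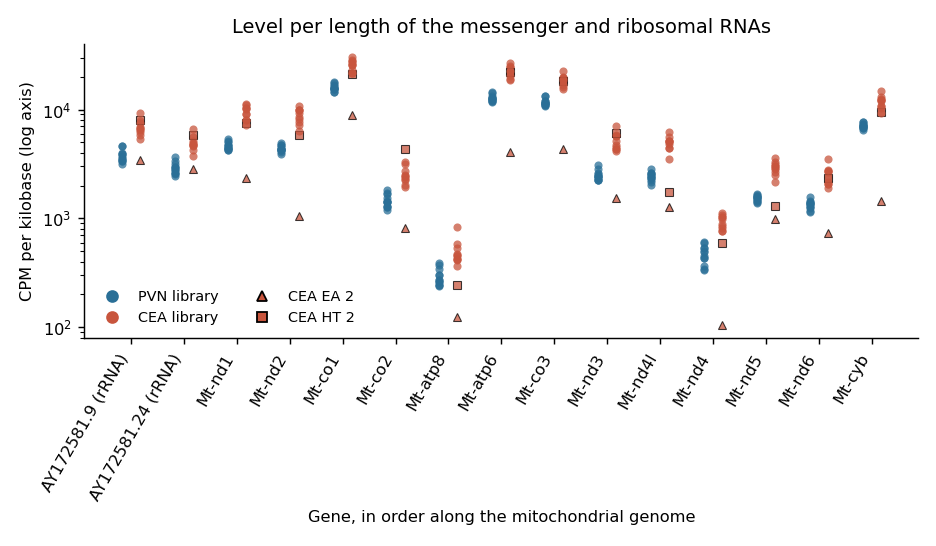
Level of the 15 messengers and ribosomal RNAs in CPM per kilobase of gene length on a log axis, in the order of the genome, with a point for each library of the PVN and the CEA. Mt-co1, Mt-atp6 and Mt-co3 are highest and Mt-nd4 and Mt-atp8 lowest in both regions.

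The spread between libraries also differed among the transcripts. Over the 12 PVN libraries, which include all treatments, the coefficient of variation of the CPM was 4.93% for Mt-cyb and 6.38% for Mt-co1. It was 19.7% for Mt-nd4 and 17.5% for Mt-atp8, the transcripts with the lowest level. The median of the 15 transcripts was 9.18%. Over the 12 CEA libraries it ranged from 20.4% for the large ribosomal RNA to 38.9% for Mt-atp8, with a median of 28.5%. Without CEA EA 2 and CEA HT 2 it ranged from 10.9% for Mt-co3 to 26.8% for Mt-atp8, with a median of 14.6%.

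The first comparison asked how the regions differ in unoperated rats, with 3 libraries each. Of the 24 mitochondrial genes tested, 16 were higher in the CEA and 0 were lower at an adjusted p under 0.05 (edgeR quasi-likelihood test with Benjamini-Hochberg adjustment over all 16748 genes tested). Among all genes tested, 12.7% were called higher and 13.7% lower. The median log2 fold change of the 24 genes was 0.60, and that of all genes was -0.01. These directions are relative to all RNA of a library, and 6 of the 16 changed sign when libraries were scaled to their mitochondrial total, as described with the division of the counts. Without overlap between the 3 and 3 libraries, 18 of the 24 were higher in the CEA and 0 were lower, where 21.3% of all genes were higher without overlap.

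Complex I, which takes electrons from NADH, had the largest fold changes among the messengers. Mt-nd4 was at 462.5, 594.4 and 616.5 CPM in the PVN and at 1169, 1218 and 1406 CPM in the CEA, a log2 fold change of 1.18 (SE 0.142, adjusted p = 0.00194). Mt-nd4l was at 702.1, 767.4 and 740.6 CPM in the PVN and at 1511, 1433 and 1534 CPM in the CEA, a log2 fold change of 1.02 (SE 0.0934, adjusted p = 0.000837). For both genes every CEA library lay above every PVN library. Mt-nd1 was at 5072, 4163 and 4944 CPM in the PVN and at 9945, 8685 and 8632 CPM in the CEA (log2 fold change 0.94, SE 0.122, adjusted p = 0.00237). Mt-nd2 (0.93), Mt-nd5 (0.92), Mt-nd3 (0.86) and the minus-strand Mt-nd6 (0.76) were higher as well, so that all 7 mitochondrial subunits of complex I passed the test. Mt-nd6 went from 823.6, 645.7 and 753.8 CPM in the PVN to 1404, 1127 and 1248 CPM in the CEA, again without overlap.

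The subunits of complex IV, which passes electrons to oxygen, were higher by less. Mt-co1 was at 26830, 23640 and 27620 CPM in the PVN and at 41860, 40840 and 39290 CPM in the CEA, with no overlap and a log2 fold change of 0.64 (SE 0.109, adjusted p = 0.00621). Mt-co3 had a log2 fold change of 0.56 (SE 0.116, adjusted p = 0.0130). Mt-co2 was at 1175, 872.3 and 1246 CPM in the PVN and at 1854, 1393 and 1580 CPM in the CEA (0.55, SE 0.168, adjusted p = 0.0487). Mt-cyb of complex III was higher by 0.66 (SE 0.101, adjusted p = 0.00425) and Mt-atp6 of the ATP synthase by 0.73 (SE 0.122, adjusted p = 0.00594). Mt-atp8, the short subunit whose gene overlaps that of Mt-atp6, did not pass the test, with a log2 fold change of 0.41 (SE 0.170, adjusted p = 0.118).

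The large ribosomal RNA was at 5265, 4121 and 5704 CPM in the PVN and at 7672, 6657 and 7190 CPM in the CEA, a log2 fold change of 0.51 (SE 0.142, adjusted p = 0.0360). The small ribosomal RNA had a log2 fold change of 0.56 (SE 0.142, adjusted p = 0.0254). For both, every CEA library lay above every PVN library. Among the transfer RNAs, the minus-strand AY172581.2 (positions 15348 to 15415) was at 56.7, 52.4 and 55.8 CPM in the PVN and at 109.2, 89.8 and 98.8 CPM in the CEA (0.85, SE 0.108, adjusted p = 0.00226). AY172581.20 (positions 14062 to 14130), also on the minus strand, had 0.76 (SE 0.211, adjusted p = 0.0349) at a level of 3.02 to 6.83 CPM. The other 7 transfer RNAs tested were not called. The calls of Mt-co2 and AY172581.20 were lost when any of the 6 libraries was left out. That of the large ribosomal RNA was lost without PVN NC 1 or any CEA library, that of the small ribosomal RNA without any CEA library, and that of Mt-co3 without CEA NC 2.

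With the 4 treatments in the model and 12 libraries a region, 18 of 24 mitochondrial genes were higher in the CEA and 0 were lower, where 26.9% of all 17768 genes tested were higher and 29.4% lower (edgeR). Their median log2 fold change was 0.71 against -0.01 over all genes. No mitochondrial gene had its 12 CEA libraries above its 12 PVN libraries, where 6.46% of all genes did. CEA EA 2 fell among or below the PVN libraries for each of the 15 messengers and ribosomal RNAs. Taken treatment by treatment, the 3 CEA libraries lay above the 3 PVN libraries in all 4 treatments for the large ribosomal RNA, in 3 treatments for 10 of the 15 messengers and ribosomal RNAs, and in 2 for the remaining 4.

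Mt-nd3 was at 775.6, 854.5 and 1075 CPM (lowest, median and highest library) in the PVN and at 533.9, 1711 and 2440 CPM in the CEA, a log2 fold change of 0.97 (SE 0.134, adjusted p = 1.49e-06, edgeR). The large ribosomal RNA was at 3834, 4451 and 5704 CPM in the PVN and at 4431, 7481 and 10490 CPM in the CEA (0.72, SE 0.0888, adjusted p = 2.59e-07). Mt-co1 was at 22400, 24310 and 27620 CPM in the PVN and at 13860, 39320 and 46560 CPM in the CEA (0.59, SE 0.117, adjusted p = 0.000164). For all 3 the lowest CEA value was that of CEA EA 2. Mt-cyb, whose level in CEA EA 2 was 1651 CPM, had a log2 fold change of 0.59 (SE 0.195, adjusted p = 0.0132). Mt-atp8 passed the test here (0.60, SE 0.185, adjusted p = 0.00812), as did Mt-co2 (0.77, SE 0.156, adjusted p = 0.000184).

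Without CEA EA 2 and CEA HT 2, a choice made after seeing the data, 20 of 24 mitochondrial genes were higher in the CEA (27.8% of all genes) and their median log2 fold change was 0.78. Mt-nd3 then had 1.05 (SE 0.0662, adjusted p = 2.09e-11, edgeR), Mt-nd1 1.02, Mt-nd4l 1.03, Mt-nd2 1.0 and Mt-nd4 1.02. Mt-co1 had 0.70 (SE 0.0475, adjusted p = 6.53e-11), Mt-co3 0.66 and Mt-cyb 0.74. The transfer RNAs AY172581.18 (0.36) and AY172581.20 (0.73) passed the test in addition, and both were below 0 when libraries were scaled to their mitochondrial total (-0.42 and -0.044). In these 10 libraries Mt-co1 ranged from 33590 to 46560 CPM, above all PVN libraries. The call of the plus-strand transfer RNA AY172581.15 (log2 fold change 1.01, SE 0.401, adjusted p = 0.0358 with all libraries) rested on 0 to 1.96 CPM and was lost when any of 9 libraries was left out: PVN NC 2, PVN HT 1, 2 or 3, PVN EA 3, PVN SEA 1, CEA HT 1 or 3, or CEA EA 3.

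**Figure D4:**
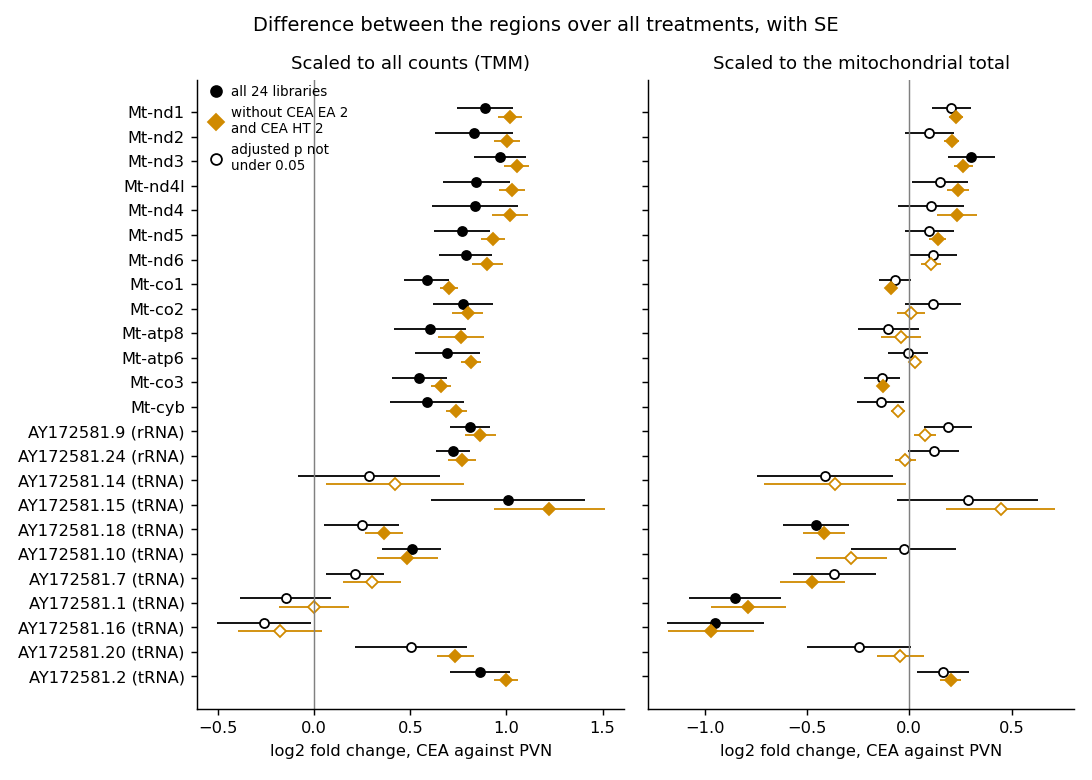
Log2 fold change of CEA against PVN over all treatments with its standard error for the genes tested, with and without CEA EA 2 and CEA HT 2. The left panel is scaled by TMM and the right panel to the mitochondrial total. Open symbols mark an adjusted p not under 0.05. On the left every messenger and ribosomal RNA lies above 0, while on the right Mt-co1, Mt-co3, Mt-cyb and Mt-atp8 lie below 0. Some transfer RNAs lie below 0 in both panels. The complex I messengers Mt-nd4, Mt-nd4l, Mt-nd1, Mt-nd2 and Mt-nd3 have larger values than Mt-co1 and Mt-co3.

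The division of the mitochondrial counts among the genes was then compared between the regions by scaling each library to its mitochondrial total. This moves the median log2 fold change of all genes to -0.71 in unoperated rats and -0.56 over all treatments, so nuclear genes are read against that shift and the values here describe unequal change within the mitochondrial RNA. In unoperated rats 5 mitochondrial genes were called, with Mt-nd1 (0.25) and Mt-nd4 (0.48) taking a larger part in the CEA and the transfer RNAs AY172581.18 (-0.56), AY172581.16 (-1.40) and AY172581.1 (-1.05) a smaller part, where 3.06% of all genes were called higher and 58.7% lower on this scale. Over all treatments Mt-nd3 took a larger part (0.30, SE 0.114, adjusted p = 0.0223, edgeR) and 3 transfer RNAs a smaller part, where 4.77% of all genes were called higher and 58.0% lower.

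Without CEA EA 2 and CEA HT 2, 7 mitochondrial genes took a larger part of the mitochondrial counts in the CEA and 6 a smaller part (4.47 and 80.1% of all genes). The 7 were Mt-nd1 (0.23, SE 0.0340, adjusted p = 1.79e-06, edgeR), Mt-nd2 (0.21), Mt-nd3 (0.26), Mt-nd4l (0.24), Mt-nd4 (0.23), Mt-nd5 (0.14) and the transfer RNA AY172581.2 (0.20). In this selection of libraries 6 of the 7 complex I messengers took a larger part. Mt-nd6, the gene of the other strand, had 0.11 (adjusted p = 0.0563, edgeR). Mt-co1 (-0.09, SE 0.0281, adjusted p = 0.00659, edgeR), Mt-co3 (-0.13, SE 0.0290, adjusted p = 0.000285, edgeR) and 4 transfer RNAs took a smaller part. The libraries were left out for their division of the mitochondrial counts, which is the quantity tested here. These p-values therefore do not measure the full spread of the region. With all libraries Mt-nd3 was the only complex I messenger called, and neither Mt-co1 nor Mt-co3 was called. Mt-nd1 then had 0.21 (adjusted p = 0.0581, edgeR) and Mt-nd2 0.099 (adjusted p = 0.478, edgeR).

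Summed by complex, the 7 complex I messengers made up 19.8% ± 0.458 of the mitochondrial counts in the 12 PVN libraries and 22.8% ± 0.778 in these 10 CEA libraries. The ranges were 19.03 to 20.66% and 21.21 to 23.72% and did not overlap. In CEA EA 2 and CEA HT 2, in contrast, complex I made up 18.0 and 17.9%, below every PVN library. The 3 complex IV messengers made up 46.6% ± 0.647 in the PVN and 43.6% ± 1.10 in the 10 CEA libraries, with overlapping ranges of 44.93 to 47.36% and 42.15 to 45.5%. CEA EA 2 was at 48.7% for complex IV, above every PVN library, and CEA HT 2 at 44.4%. Complex III and the ATP synthase took 10.9 and 11.7% in the PVN, against 10.5 and 11.9% among those 10 CEA libraries, 4.52 and 7.58% in CEA EA 2 and 9.52 and 13.3% in CEA HT 2. Of the single transcripts, Mt-nd1 (5.65 to 6.22% in the PVN against 6.58 to 7.48% in those 10) and Mt-co3 (11.96 to 12.69% against 10.8 to 11.7%) did not overlap, and the other 13 did. With CEA EA 2 and CEA HT 2 included, all 15 overlapped.

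The comparisons within a region asked whether hepatectomy changed the transcripts and whether needling with or without current changed them after hepatectomy. At an adjusted p under 0.05, 0 mitochondrial genes were called by edgeR, and 0 by DESeq2, in any of the 8 comparisons. The comparisons of EA and of SEA with HT use the same HT libraries and are not independent of each other or of the comparison of HT with NC.

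In the PVN after hepatectomy, 0 of 23 mitochondrial genes passed the adjusted test (0.012% of all genes) and 0 had an unadjusted p under 0.05 (11.0% of all genes), or 2 when all 12 libraries of the region were fitted together. Other lists had lower values in the same comparison. Of the nuclear oxidative phosphorylation genes 23 of 71 had an unadjusted p under 0.05 (median log2 fold change -0.23), and of the paraventricular neuroendocrine markers 4 of 7 (-0.58), with 0 called after adjustment in either list. Their part in the mitochondrial values was not tested. The median log2 fold change of the 15 messengers and ribosomal RNAs was -0.10, with 12 of 15 below 0, and it ran from -0.19 (without PVN NC 2) to -0.057 (without PVN NC 1) when single libraries were left out. Without PVN NC 2, which had the lowest value of the NC group for 12 of these 15 transcripts, 4 genes were lower after hepatectomy: Mt-co2 (-0.36, adjusted p = 0.0112, edgeR), the small ribosomal RNA (-0.32, adjusted p = 0.0286), Mt-co3 (-0.21, adjusted p = 0.0399) and the transfer RNA AY172581.15, and 10 genes had an unadjusted p under 0.05. In that comparison 20.2% of all genes were called.

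For EA against HT in the PVN, 6 of 23 genes had an unadjusted p under 0.05, where 5.67% of all genes did, and 0 passed the adjusted test (0.0961% of all genes). Mt-nd4l was at 763.1, 713.3 and 768.2 CPM in HT and at 596, 667.3 and 695.3 CPM in EA, a log2 fold change of -0.19. Mt-nd1 was at 4539, 4454 and 4531 CPM in HT and at 4228, 4267 and 4075 CPM in EA (-0.10). Mt-nd5 was at 2829, 2900 and 2983 CPM in HT and at 2573, 2623 and 2758 CPM in EA (-0.13). For these 3 complex I messengers the EA libraries lay below the HT libraries without overlap, as they did for Mt-nd2 and the transfer RNA AY172581.10 (5 of 23 genes, where 5.68% of all genes did). The groups overlapped for the other complex I messengers, Mt-nd3, Mt-nd4 and Mt-nd6. Log2 fold changes of the 15 messengers and ribosomal RNAs ran from -0.19 to 0.25, with a median of -0.0545 and 11 of 15 below 0. The 6 genes with an unadjusted p under 0.05 were Mt-nd4l, Mt-nd1, Mt-nd5, AY172581.10, the large ribosomal RNA (-0.16) and Mt-co2 (0.16). Their number was 1 when all 12 libraries of the region were fitted together and 2 when libraries were scaled to their mitochondrial total. It was 2 without PVN HT 2, and 3 without PVN HT 1, PVN EA 2 or PVN EA 3. In the same comparison the paraventricular neuroendocrine markers had a median of 0.46 (4 of 7 at an unadjusted p under 0.05), the choroid plexus markers 0.43 (2 of 6) and the nuclear oxidative phosphorylation genes -0.02 (7 of 71). The smallest adjusted p of these comparisons over the mitochondrial genes was 0.418 for HT against NC and 0.683 for EA against HT. SEA against HT had 1 gene at an unadjusted p under 0.05 (Mt-nd3, -0.16, with 4.38% of all genes and 0.0% after adjustment), beside 3 of 7 paraventricular markers (median 0.36) and 3 of 7 astrocyte markers (0.13). EA against SEA also had 1 (Mt-co2, 0.25, with 5.21% and 0.0%). With a library left out, these counts ran from 0 to 3 (without PVN SEA 2) and from 0 to 6 (without PVN SEA 3).

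In the CEA after hepatectomy, 4 of 24 genes had an unadjusted p under 0.05 (3.75% of all genes) and 0 passed the adjusted test (0.0% of all genes, smallest adjusted p of the mitochondrial genes 0.918). They were both ribosomal RNAs, Mt-co2 and the transfer RNA AY172581.18, all with a log2 fold change above 0, and 1 gene was left without CEA NC 2, CEA NC 3 or CEA HT 3. None was left when all 12 libraries of the region were fitted together or when libraries were scaled to their mitochondrial total. With the replicate numbers as a block the count was 3, and the median log2 fold change of the 24 genes was 0.084 against 0.13 without the block. The large ribosomal RNA was at 7672, 6657 and 7190 CPM in NC and at 8810, 9104 and 10490 CPM in HT, a log2 fold change of 0.42. The small ribosomal RNA was at 6596, 5590 and 5922 CPM in NC and at 7481, 7607 and 8923 CPM in HT (0.43). Their groups did not overlap, and the same held for Mt-nd3 and AY172581.18 (4 of 24 genes, where 5.86% of all genes were higher without overlap). Mt-co1, in contrast, had a log2 fold change of 0.03 (SE 0.175). The median of the 15 messengers and ribosomal RNAs was 0.13 with all libraries, 0.26 without CEA HT 2 and -0.014 without CEA HT 3. The nuclear oxidative phosphorylation genes had a median of 0.26 (1 of 71 at an unadjusted p under 0.05) and the choroid plexus markers -1.98 (1 of 6). Microglia markers had 0.25 (2 of 6) and astrocyte markers -0.23 (2 of 7), and the part of these lists in the mitochondrial values was not tested. The summed choroid plexus level in NC was 182.7, 1451 and 199.7 CPM, with CEA NC 2 as the high library.

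For SEA against HT in the CEA, 5 of 24 genes had an unadjusted p under 0.05 (3.07% of all genes) and 0 passed the adjusted test (0.0% of all genes, smallest adjusted p 0.959). In SEA the large ribosomal RNA was at 7518, 7421 and 5930 CPM (-0.48) and the small ribosomal RNA at 6488, 6371 and 5108 CPM (-0.46). Mt-nd3 was at 1973, 2120 and 2440 CPM in HT and at 1455, 1590 and 1523 CPM in SEA (-0.55), and Mt-co2 at 1728, 2969 and 2165 CPM in HT and 1326, 1545 and 1658 CPM in SEA (-0.64). All 4 lay below HT without overlap, and so did AY172581.18, Mt-atp6 and Mt-co3 (7 of 24 genes, where 5.59% of all genes did). The log2 fold change was below 0 for 15 of the 15 messengers and ribosomal RNAs, with a median of -0.29. Without CEA HT 2 the median was -0.45 and the unadjusted count was 9 genes. It was 2 genes, with a median of -0.17, when CEA HT 3 was left out, and without CEA SEA 1 or CEA SEA 2 the count was 1. It was 1 when all 12 libraries of the region were fitted together and 0 with scaling to the mitochondrial total. The choroid plexus markers had higher values in SEA, with a summed level of 209.8, 2188 and 290.9 CPM against 180.2, 142.2 and 164.5 CPM in HT, and 3 of 6 had an unadjusted p under 0.05 (median log2 fold change 2.50, adjusted 0 of 6). The nuclear oxidative phosphorylation genes had a median of -0.30, with 4 of 71 at an unadjusted p under 0.05. Their part in the mitochondrial values was not tested.

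For EA against HT in the CEA, the log2 fold changes of the 15 messengers and ribosomal RNAs ran from -0.66 to -0.31 with a median of -0.53, and their standard errors from 0.277 to 0.691. The nuclear oxidative phosphorylation genes had a median of -0.38 (5 of 71 at an unadjusted p under 0.05), the central amygdala markers -0.57 (2 of 8), the choroid plexus markers 1.11 (1 of 6) and the paraventricular markers 0.70 (1 of 6). None of the 24 genes reached an unadjusted p under 0.05 in edgeR and 1 did in DESeq2, where 3.19% of all genes did in edgeR. AY172581.18 and both ribosomal RNAs lay below HT without overlap (3 of 24 genes, where 4.6% of all genes did). In EA the large ribosomal RNA was at 7444, 4431 and 8137 CPM. EA against SEA had 0 genes at an unadjusted p under 0.05 in either tool (1.99% of all genes in edgeR) and a median of -0.20, with choroid plexus markers at a median of -1.47 (0 of 7 at an unadjusted p under 0.05) and CEA SEA 2 at a summed choroid plexus level of 2188 CPM, against 209.8 and 290.9 CPM in the other SEA libraries. CEA EA 2 had the lowest value of the EA group for all 15 transcripts. Without it the median was -0.11 for EA against HT, with 12 of 15 below 0, and 0.18 for EA against SEA, with 0 of 15 below 0. Without CEA EA 3 the medians were -0.93 and -0.57, and that of EA against SEA was also -0.39 without CEA EA 1, -0.11 without CEA SEA 2 and -0.32 without CEA SEA 3.

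**Figure D5:**
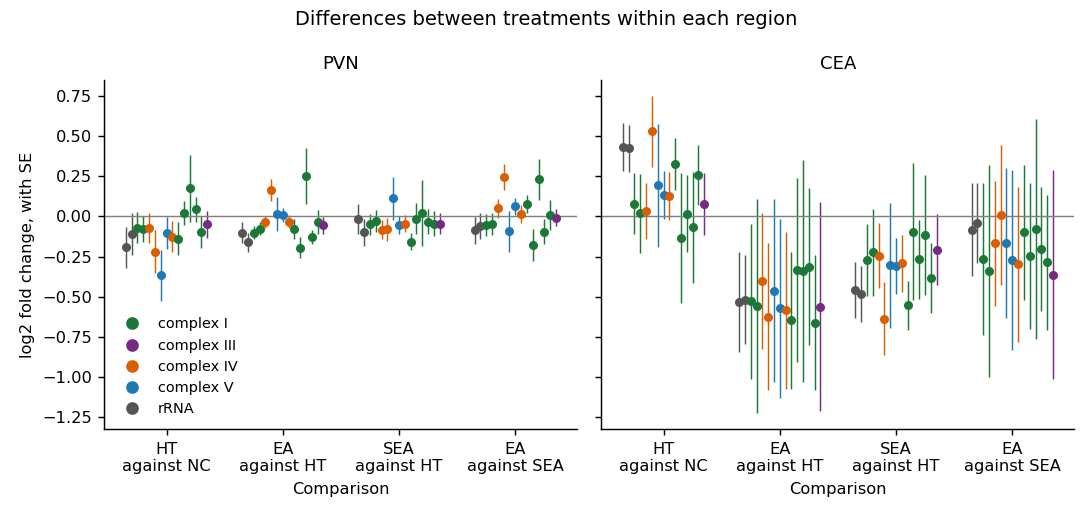
Log2 fold change of the 15 messengers and ribosomal RNAs with standard errors in the comparisons of treatments within the PVN and the CEA. In the PVN the values lie between -0.37 and 0.25, and in the CEA those of EA against HT lie below 0 with standard errors of 0.277 to 0.691.

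Whether the change differed between the regions was tested by an interaction term. For HT against NC, 0 genes were called and 4 had an unadjusted p under 0.05 (12.1% of all genes): both ribosomal RNAs, Mt-nd3 and Mt-co2, with differences of 0.44 to 0.73 between the log2 fold changes. The log2 fold changes of HT against NC for these 4 genes lay below 0 within the PVN (-0.22 to -0.11) and above 0 within the CEA (0.33 to 0.53), and none of them passed the adjusted test in either region. The number of genes at an unadjusted p under 0.05 was 1 without CEA NC 2, 2 without CEA HT 3 and 6 without CEA HT 2. It was 0 when libraries were scaled to their mitochondrial total. The nuclear oxidative phosphorylation genes had a median difference of 0.46 in the same direction, with 19 of 71 at an unadjusted p under 0.05. The choroid plexus markers had a median difference of -2.01 (1 of 7) and the paraventricular markers 0.46 (2 of 7), and the part of these lists in the mitochondrial values was not tested. Without PVN NC 2, the small ribosomal RNA was called (0.72, adjusted p = 0.0465, edgeR), where 3.93% of all genes were called. For EA against HT, 0 genes were called and 1, AY172581.10, had an unadjusted p under 0.05 (4.52% of all genes), which became 0 without PVN HT 3, PVN EA 3 or CEA EA 2 and 3 without CEA EA 3. DESeq2 called 0 genes in both and gave the same counts of 4 and 1 at an unadjusted p under 0.05.

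The nuclear genes of the same complexes were compared between the regions beside the mitochondrial ones. Of 71 nuclear genes for oxidative phosphorylation subunits tested over all treatments, 31 were higher in the CEA and 0 lower (26.9 and 29.4% of all genes), with a median log2 fold change of 0.20. Uqcr11 of complex III had 0.93, and Cox7c and Cox8a of complex IV had 0.63 and 0.61. In unoperated rats 4 of 71 were higher (12.7% of all genes) and the median was 0.01, whereas the mitochondrial median was 0.60 in the same libraries. Of 38 genes for mitochondrial transcription, replication and RNA processing, 10 were higher and 5 lower over all treatments, with a median of 0.01. Esrra, a nuclear receptor that acts on genes of energy metabolism, had 0.98, Polg, the polymerase of mitochondrial DNA, 0.35, and Fastk 0.31, while Top1mt, the mitochondrial topoisomerase, had -0.46, Mrm2, a methyltransferase of the large ribosomal RNA, -0.50 and Pnpt1, an RNA-degrading enzyme, -0.23. Of 24 other nuclear genes for mitochondrial proteins, 4 were higher and 3 lower, with a median of 0.03. The import receptor Tomm70 had 1.0 and the chaperone Hspa9 -0.19.

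The markers of region and cell type moved between the regions as well, and are given over all treatments, where 26.9% of all genes were higher and 29.4% lower. All 7 markers of paraventricular neuroendocrine neurons were lower in the CEA (Avp -3.40, Sim1 -5.30) and all 8 tested markers of central amygdala neurons were higher (Drd1 4.39, Adora2a 5.64), in the direction of the labelled tissues. All 8 oligodendrocyte markers were higher, with a median of 1.28, and their summed level ran from 10420 to 17340 CPM in the PVN libraries, all below the 27290 to 45200 CPM of the CEA libraries. All 6 microglia markers (median 0.64) and all 5 vessel markers (0.59) were higher. In unoperated rats, where 12.7% of all genes were higher, 8 of 8 oligodendrocyte, 3 of 6 microglia, 3 of 5 vessel and 6 of 8 central amygdala markers were higher, and 7 of 7 paraventricular markers were lower. Of 9 neuronal markers 4 were higher and 4 lower, and of 7 astrocyte markers 2 were higher and 3 lower. Of 8 choroid plexus markers 3 were higher and 1 lower, of 5 blood markers 1 was higher, and Snhg11, the tested gene among those with nuclear-retained RNA, was lower (-0.67). The part of cell composition in the mitochondrial difference was not tested.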

How the data were processed

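Gene-level RNA-seq counts of the 24 libraries were used as deposited. The study describes strand-specific libraries aligned with HISAT2 and counted with featureCounts, without versions, and names mRatBN7.2, whereas the labels' processing notes list a human build and the largest gene end on chromosome 1, 282724300, does not belong to mRatBN7.2. Coordinates are therefore those of the table. The selection of RNA, the strand setting of the counting and the handling of reads with several matches are not given in the sources used here. This matters for mitochondrial genes, which have nuclear copies and overlapping neighbours.

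Groups followed the labels, with 3 libraries each. The study's methods state that brain samples were not of the same animal but of the same batch, while naming 12 rats for the 24 libraries. Which rat gave which library is not given, so p-values measure the spread between libraries. A second header line exchanges the numbers of replicates 2 and 3 of the CEA EA group. The column names were used. The replicate numbers carry no stated pairing. Same-numbered libraries deviated together, with every correlation above 0.1, only for CEA HT against NC (r of 0.18 to 0.294) and CEA against PVN in NC (0.13 to 0.293).

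Tests were run over all genes with edgeR 4.0.16 (limma 3.58.1, R 4.3.3): filterByExpr, TMM factors (0.915 to 1.06), quasi-likelihood fit, two-sided, Benjamini-Hochberg threshold 0.05. Comparisons within a region used their 6 libraries, and regions were compared in NC and over all 24 libraries with treatment as a term. CPM values are TMM-scaled over all libraries, and overlap between groups was read from CPM scaled within the comparison. DESeq2 1.42.0 and other scalings were alternatives. Shares and complex sums carry no test. The scripts were tested on simulated data. Genes named were the messengers, ribosomal RNAs and called or abundant transfer RNAs. The members and lists were chosen with earlier results of these data known.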

Additional observations from a re-analysis of the deposited data

How the results depend on the processing

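Nuclear scaling, no filter on low counts, DESeq2 and a replicate block left the counts of called mitochondrial genes at 16 in NC and 18 over all treatments for CEA against PVN. Without a TMM factor, which moves the median of all genes to -0.18 and -0.15, they were 12 and 17. Leaving out single libraries gave 11 to 14 and 17 to 20, and 0 to 4 for PVN HT against NC and 0 to 1 for its interaction with region, the highest without PVN NC 2 in both. The replicate block changed no call in any of the 12 comparisons, also where the replicate numbers did not pair the libraries. Scaling to the mitochondrial total gave 5 and 4 calls, and it reversed the sign in NC for AY172581.24 (-0.18), Mt-co1 (-0.050), Mt-cyb (-0.036), Mt-co3 (-0.13), AY172581.9 (-0.12) and Mt-co2 (-0.14). Over all treatments it reversed Mt-co1 (-0.070), Mt-atp8 (-0.10), Mt-atp6 (-0.0063), Mt-cyb (-0.14), AY172581.10 (-0.027) and Mt-co3 (-0.13), and without CEA EA 2 and CEA HT 2 on the same scale AY172581.24 (-0.020), Mt-co1 (-0.088), Mt-atp8 (-0.039), Mt-cyb (-0.053), AY172581.10 (-0.28) and Mt-co3 (-0.13), and of the calls gained without these libraries AY172581.18 (-0.42) and AY172581.20 (-0.044). That scale removes the shared difference in level by construction. At an unadjusted p under 0.05, DESeq2 gave 2 genes for PVN HT against NC, 6 for EA against HT, 1 for SEA against HT and 2 for EA against SEA, then 4, 1 and 5 for CEA HT against NC, EA against HT and SEA against HT, and 4 and 1 for the interactions with HT and EA. Fitting all 12 libraries of a region together gave 1 such gene for CEA EA against HT, 1 for CEA EA against SEA and 0 for PVN SEA against HT and PVN EA against SEA, and scaling to the mitochondrial total gave 0 for these 4. The mitochondrial share among rows with an Ensembl identifier, and the share of all counts on the mitochondrial messengers alone, gave every difference the same sign. Transfer RNAs other than AY172581.2 and AY172581.18 lay below 10 CPM, which limits what could be detected for them.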

Other observations

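Neighbouring mitochondrial genes differed in counts per kilobase. The part of overlapping genes and counting settings in these ratios was not tested. Mt-atp6 exceeded Mt-atp8, with which it shares 43 bases, 44.6-fold ± 6.86 per kilobase over the 12 PVN libraries and 46.5-fold ± 6.24 over the CEA libraries without CEA EA 2 and CEA HT 2 (SD, n = 10). Mt-nd4l exceeded Mt-nd4, with which it shares 7 bases, 5.39-fold ± 1.24 and 5.35-fold ± 0.745. Mt-nd5 and Mt-nd6, which lie on opposite strands and share 23 bases, had a ratio of 1.15 ± 0.0844 and 1.17 ± 0.0839. With CEA EA 2 and CEA HT 2 included, the CEA ran from 31.8 to 89.8 for Mt-atp6 over Mt-atp8, from 2.96 to 12.2 for Mt-nd4l over Mt-nd4 and from 0.554 to 1.36 for Mt-nd5 over Mt-nd6. CEA HT 2 held the extreme value of all 3 ratios (89.8, 2.96 and 0.554), and CEA EA 2 the other end of the latter 2 (12.2 and 1.36) while it lay within the range of the 10 libraries for Mt-atp6 over Mt-atp8.

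The small ribosomal RNA exceeded the large one per kilobase 1.31-fold ± 0.0415 in the PVN (1.23 to 1.38) and 1.4-fold ± 0.0270 in the same 10 CEA libraries (1.35 to 1.45). The ranges overlapped and no test was made.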
